A study of Mus musculus with 9 samples.

Results

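The 10 genes followed here mark the macrophages living in the mouse heart, and their RNA was measured in 9 heart libraries. They are Lyve1, Folr2 and Timd4, which mark the self-renewing resident cells, the scavenger receptors Cd163 and Mrc1, and Adgre1, Csf1r, Mertk, Cd68 and Lyz2, which macrophages share more widely. The genes were taken by symbol from a table of counts of 22851 genes, all 10 were found there, and all 10 passed the low-count filter in each of the 3 comparisons. Resident heart macrophages are seeded before birth, renew themselves in place, and clear dying cells and the debris of cardiomyocytes. Part of them carries LYVE1, FOLR2 and TIM-4 and sits along vessels, while macrophages that descend from blood monocytes enter after injury and carry CCR2. LYVE1 is also made by lymphatic endothelium, and LYZ2 by monocytes and neutrophils.

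The mice were male C57BL/6J animals aged 6 to 8 weeks at the start. CK mice, the controls, received citrate buffer, and DCM mice received a single intraperitoneal dose of streptozotocin at 180 mg/kg, which destroys the insulin-producing beta cells, and were kept for 12 weeks. SPM mice received the same streptozotocin as DCM mice and spermine at 1 mg/kg, daily for 2 weeks beforehand and every other day for 12 weeks afterwards, so no group received spermine without streptozotocin. Each group has 3 libraries, and whether a library is 1 heart or a pool of hearts is described in both ways, so p-values measure only the spread between these libraries.

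Library totals lay between 29901300 and 39718680 counts. The tissue label is heart, whereas the extraction text names the retina. The 6 cardiomyocyte markers in the table summed to between 39065 and 52538 CPM (counts scaled to a common library size after TMM normalization), and 6 photoreceptor markers to between 0.584 and 1.79 CPM. The share of counts on mitochondrial genes was highest in SPM, at 21.01% to 21.09%, and was 13.7% to 16.2% in CK and 15.5% to 18.9% in DCM. SPM replicate 2 stood apart from the other libraries. Of 11602 genes with enough counts, 69.1% had a rate in SPM replicate 2 that fell inside the interval set by its group mates, while the same share was 14.2% to 41.2% for each other library. Computed as a mixture, 44.5% from SPM replicate 1 and the rest from SPM replicate 3, its counts deviated from the mixture by a median of 0.396 in units of squared counting noise, and 1.19 was the next lowest of 252 combinations of libraries. Of 2656 genes with no count in SPM replicates 1 and 3, 30 had a count in SPM replicate 2, against 485 to 1162 for the other libraries. Of the 10 macrophage genes, 9 lay between the other SPM libraries, the exception being Timd4. Results for SPM are therefore also given without SPM replicate 2.

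Levels of different genes were compared by FPKM, which divides counts by gene length. Lyz2, which encodes the lysozyme of myeloid cells, was the most abundant in every group at 334 ± 53.8 FPKM in CK (SD, n = 3), 222 ± 29.8 in DCM and 338 ± 101 in SPM. Csf1r, the receptor for the survival factor CSF1, came next at 29.0, 19.4 and 22.7 FPKM. Timd4 was the least abundant at 1.56, 1.45 and 1.95 FPKM, and Folr2 stood just above it at 4.34, 3.04 and 3.64.

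The middle of the order was not the same in the 3 groups. In CK the levels of Cd68 (12.8 FPKM), Cd163 (11.1), Adgre1 (10.4) and Mrc1 (9.34) overlapped from each gene to the next, and Lyve1 stood below them at 6.80 FPKM. In DCM Cd163 (14.2 FPKM) and Lyve1 (11.9) stood above Cd68 (9.81) and Mrc1 (7.29) with no overlap between neighbours, and Adgre1 came down to 5.12 FPKM, where it overlapped Mertk (5.30). The 19.0 FPKM of Lyve1 in SPM came after Lyz2 and Csf1r, and its libraries overlapped those of Csf1r above it and of Cd163 (17.0) below it. Cd68 (12.1 FPKM), Adgre1 (11.3) and Mrc1 (11.2) overlapped one another in order, and Mertk followed at 6.30 FPKM. The ranges of Mertk and Folr2 overlapped in CK only among the 3 groups.

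The promoter sequences of 4 of the genes are shown, picked by their correlations over the libraries. Mrc1, Cd68 and Lyz2 correlated with each other (Pearson r of 0.684 to 0.871). Cd163 correlated with Lyz2 at 0.176, with Cd68 at 0.12 and with Mrc1 at 0.498. With the group means taken away, these values for Cd163 were 0.857, 0.609 and 0.902. Each promoter covers 250 bases before and 50 bases after the start of the gene, from RefSeq on GRCm38.p6. It is read 5′ to 3′ on the strand of the gene. Of the 9 genes looked up in the table of promoters, 7 had 8 entries, with 2 starts for Folr2, none was found there for Lyve1 and Adgre1, and the promoter of Csf1r was not analysed here. Capitals mark GAGGAA, the core bound by the myeloid factor PU.1, and TGCTGA, an element bound by MAF factors, searched on both strands as TTCCTC and TCAGCA. The lines give Mrc1 (chr2:14229164-14229463, plus strand), Cd68 (chr11:69666121-69666420, minus strand), Lyz2 (chr10:117282223-117282522, minus strand) and Cd163 (chr6:124304401-124304700, plus strand).
Mrc1: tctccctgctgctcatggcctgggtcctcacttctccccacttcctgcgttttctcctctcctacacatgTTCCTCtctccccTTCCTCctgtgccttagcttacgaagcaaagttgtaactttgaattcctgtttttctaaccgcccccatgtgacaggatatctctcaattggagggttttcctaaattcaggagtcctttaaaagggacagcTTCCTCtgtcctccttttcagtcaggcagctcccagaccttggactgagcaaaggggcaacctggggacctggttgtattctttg
Cd68: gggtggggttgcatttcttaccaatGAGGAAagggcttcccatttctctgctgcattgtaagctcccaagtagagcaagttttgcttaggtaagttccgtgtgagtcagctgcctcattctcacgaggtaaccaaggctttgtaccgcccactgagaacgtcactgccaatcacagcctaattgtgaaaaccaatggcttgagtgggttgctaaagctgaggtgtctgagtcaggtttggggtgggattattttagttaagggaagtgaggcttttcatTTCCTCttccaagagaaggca
Lyz2: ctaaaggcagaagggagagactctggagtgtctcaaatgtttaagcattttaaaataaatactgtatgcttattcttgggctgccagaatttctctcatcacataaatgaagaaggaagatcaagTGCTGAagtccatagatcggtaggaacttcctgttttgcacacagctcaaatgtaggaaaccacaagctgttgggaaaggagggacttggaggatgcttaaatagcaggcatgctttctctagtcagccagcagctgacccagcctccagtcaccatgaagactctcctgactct
Cd163: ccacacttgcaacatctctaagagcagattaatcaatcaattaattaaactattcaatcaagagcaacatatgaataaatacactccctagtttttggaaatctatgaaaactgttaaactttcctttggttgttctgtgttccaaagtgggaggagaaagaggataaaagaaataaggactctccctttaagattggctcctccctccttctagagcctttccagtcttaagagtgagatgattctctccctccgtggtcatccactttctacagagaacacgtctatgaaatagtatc
The PU.1 core was found 3 times in the Mrc1 promoter and 2 times in that of Cd68, and in 28.3% of all 32851 promoters of this length. The MAF element was found in the promoters of Lyz2, Folr2 and Timd4 and in 19.5% of all promoters. None of the 8 entries held both motifs, and a match is a run of letters, not a site of binding. Whether the motifs go with the correlations was not tested.

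In DCM compared to CK, the 10 genes did not move in 1 direction. Lyve1 was upregulated 1.86-fold, and Adgre1, which encodes the F4/80 antigen, was downregulated 1.91-fold. Cd163 lay above CK in every DCM library, and Mrc1, Folr2, Csf1r and Lyz2 lay below CK in every DCM library, all by less than the fold change limit of 1.5. Genes were called at an adjusted p below 0.05 (edgeR quasi-likelihood test, Benjamini-Hochberg over 14402 genes) with at least that fold change. By this rule 1 of the 10 was called higher, beside 2.03% of all genes tested, and 1 was called lower, beside 2.31%. The libraries of the groups did not overlap for 2 genes that were higher, beside 14.6% of all genes, and for 5 that were lower, beside 14.7%. The median log2 fold change of the 10 was -0.28, against -0.00 over all genes. In bulk RNA, fewer cells of a type and less RNA per cell cannot be told apart.

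Lyve1 (ENSMUSG00000030787, chromosome 7) encodes a receptor for hyaluronan. Its level was 17.2, 21.7 and 17.5 CPM in CK replicates 1 to 3, 35.8, 35.7 and 33.9 in DCM, and 59.98, 56.5 and 52.6 in SPM. The 3 groups formed 3 separate steps, with every DCM library above every CK library and every SPM library above every DCM library. The means were 18.8 ± 2.53 CPM in CK, 35.1 ± 1.08 in DCM and 56.4 ± 3.68 in SPM (SD, n = 3 each). The log2 fold change in DCM compared to CK was 0.90 (SE 0.10, edgeR adjusted p = 0.00017).

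Folr2 (ENSMUSG00000032725, chromosome 7) encodes folate receptor beta and is a marker of perivascular resident macrophages. It had few counts, 95 to 191 a library. Its level was 5.55, 5.25 and 4.19 CPM in CK, 3.92, 3.22 and 4.05 in DCM, and 5.88, 4.05 and 3.58 in SPM. All 3 DCM libraries lay below CK, but CK replicate 3 was only just above DCM replicate 3, and the SPM libraries spanned both groups. DCM compared to CK gave a log2 fold change of -0.42 (SE 0.19, edgeR adjusted p = 0.197). Reads from an antisense gene, Gm10602, can fall on Folr2 where counting ignores strand, and it held at most 41 counts in any library.

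Timd4 (ENSMUSG00000055546, chromosome 11) encodes TIM-4, a receptor for phosphatidylserine on dying cells. With 67 to 141 counts a library it was the least counted of the 10. Its level was 4.15, 3.40 and 2.17 CPM in CK, 3.39, 3.22 and 3.05 in DCM, and 4.34, 4.44 and 4.26 in SPM. The CK libraries spread widely on both sides of the tight DCM group, while the 3 SPM libraries lay above all 6 others. The gap to CK was marginal, with 131 counts in SPM replicate 3 and 130 in CK replicate 1. The log2 fold change in DCM compared to CK was -0.01 (SE 0.25, edgeR adjusted p = 0.989), and its sign changed when single libraries were left out.

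Cd163 (ENSMUSG00000008845, chromosome 6) encodes the scavenger receptor for complexes of haemoglobin and haptoglobin. Its level was 47.7, 49.5 and 44.5 CPM in CK, 62.5, 65.0 and 65.1 in DCM, and 87.0, 77.7 and 68.5 in SPM. As with Lyve1, the 3 groups did not overlap and stood in the order CK, DCM, SPM, although the SPM libraries were spread and SPM replicate 3 was near the DCM group. DCM differed from CK by a log2 fold change of 0.44 (SE 0.07, edgeR adjusted p = 0.00226), past the p limit and short of the fold limit.

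Mrc1 (ENSMUSG00000026712, chromosome 2) encodes the mannose receptor CD206. Its level was 47.3, 51.3 and 45.6 CPM in CK, 40.3, 36.9 and 42.4 in DCM, and 78.3, 58.2 and 49.7 in SPM. Every DCM library was below every CK library and every SPM library. Between DCM and CK the log2 fold change was -0.27 (SE 0.08, edgeR adjusted p = 0.0581).

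Adgre1 (ENSMUSG00000004730, chromosome 17) encodes the adhesion receptor that the F4/80 antibody binds. Its level was 34.4, 33.8 and 28.6 CPM in CK, 17.6, 15.2 and 17.8 in DCM, and 52.1, 37.4 and 23.1 in SPM. The DCM libraries lay far below CK and close together, and the SPM libraries were so spread that SPM replicate 1 was above and SPM replicate 3 below every CK library. For DCM compared to CK it had a log2 fold change of -0.93 (SE 0.10, edgeR adjusted p = 0.000146).

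Csf1r (ENSMUSG00000024621) encodes the receptor on which macrophage survival depends. Its level was 150 CPM in CK replicate 1, 134 in CK replicate 2 and 108 in CK replicate 3, 102, 92.3 and 84.7 in DCM, and 124, 109 and 95.4 in SPM. The DCM libraries lay below CK by a small gap, and the SPM libraries overlapped both groups. The log2 fold change in DCM compared to CK was -0.49 (SE 0.11, edgeR adjusted p = 0.0153), just short of the fold limit. Without CK replicate 3, whose Csf1r and Lyz2 levels were the lowest of CK, both genes passed that limit at -0.61 and -0.62. The antisense gene Hmgxb3 overlaps the 3′ end of Csf1r and held at most 1053 counts in any library.

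Mertk (ENSMUSG00000014361, chromosome 2) encodes a receptor tyrosine kinase for engulfing dying cells. Its level was 19.4, 23.7 and 20.4 CPM in CK, 23.0, 22.6 and 24.1 in DCM, and 29.8, 28.0 and 25.7 in SPM. CK and DCM overlapped, with a log2 fold change of 0.14 (SE 0.10, edgeR adjusted p = 0.432), while all SPM libraries were above both. Cd68 (ENSMUSG00000018774, chromosome 11) encodes a lysosomal glycoprotein of phagocytes. Its level was 18.9, 14.0 and 12.4 CPM in CK, 13.2, 11.4 and 12.2 in DCM, and 17.6, 15.5 and 12.9 in SPM. All 3 groups of Cd68 overlapped, except that CK replicates 1 and 2 stood above all of DCM, and the log2 fold change in DCM compared to CK was -0.30 (SE 0.15, edgeR adjusted p = 0.244).

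Lyz2 (ENSMUSG00000069516, chromosome 10) was at 458, 455 and 347 CPM in CK, 337, 282 and 274 in DCM, and 607, 426 and 337 in SPM. Every DCM library was below every CK library. DCM compared to CK gave -0.50 on the log2 scale (SE 0.11, edgeR adjusted p = 0.0153). Lyz2 has a close copy, Lyz1, with which reads can be shared. Their coding sequences of 447 bases each differ at 22 bases, an identity of 95.1%, and the longest identical run is 118 bases. The stretch below covers coding bases 37 to 156 in GENCODE M21 on GRCm38 and holds 14 of the differences, in capitals.
Lyz2: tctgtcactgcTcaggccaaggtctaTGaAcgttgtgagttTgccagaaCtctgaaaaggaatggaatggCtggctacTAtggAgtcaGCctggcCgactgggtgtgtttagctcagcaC
Lyz1: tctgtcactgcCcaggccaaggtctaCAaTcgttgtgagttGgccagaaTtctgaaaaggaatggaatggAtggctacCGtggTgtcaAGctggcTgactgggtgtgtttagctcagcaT
Lyz1 was highest in SPM at 6.12 to 19.7 CPM, with 2.84 to 6.73 in CK and 5.25 to 6.28 in DCM, far below Lyz2 in each library, and how shared reads were assigned is not given in the sources used here.

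**Figure D1:**
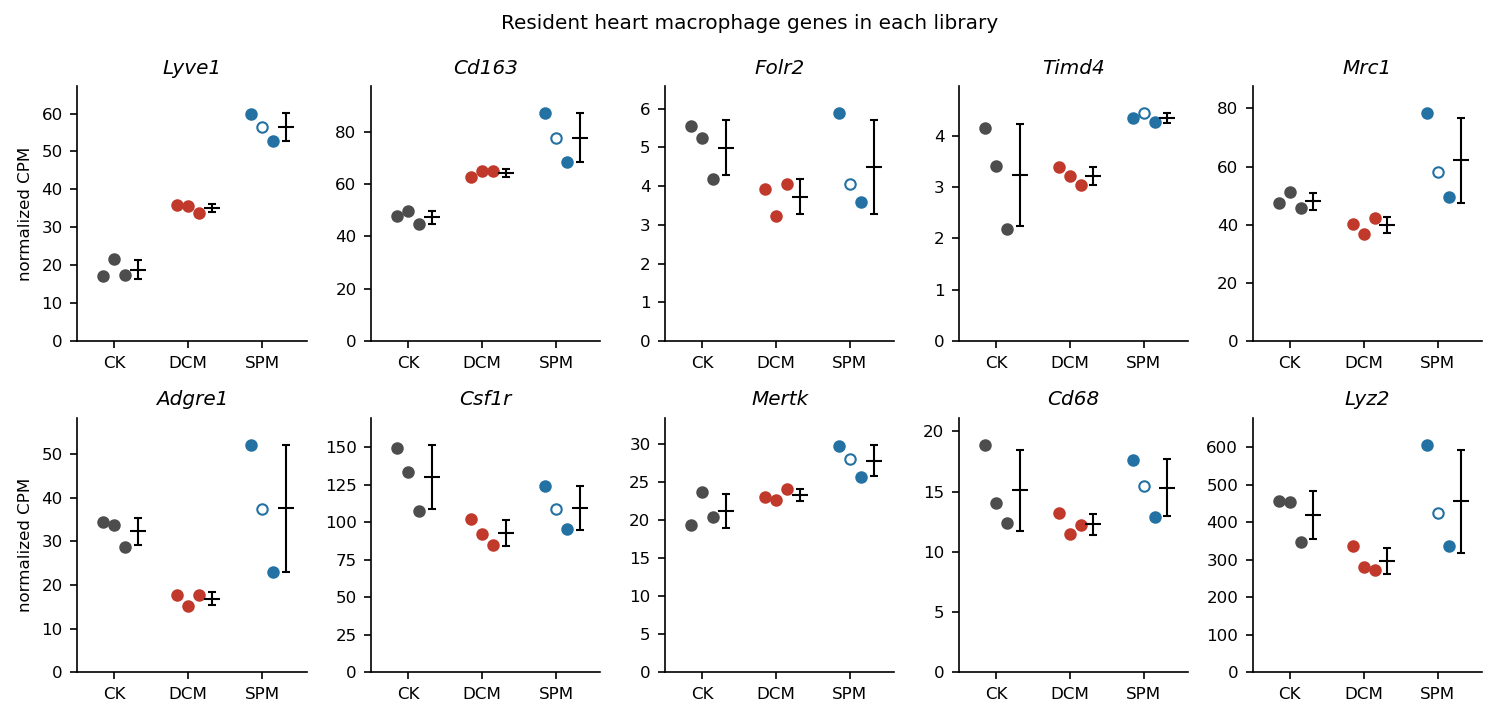
Normalized CPM of each of the 10 genes (vertical axis, from 0) in the 3 libraries of CK, DCM and SPM (points), with SPM replicate 2 as an open circle and the mean ± SD of the group beside the points. Lyve1 and Cd163 step up from CK to DCM to SPM without overlap, while Adgre1 is lowest in DCM, at 15.2 to 17.8 CPM, and widest in SPM, at 23.1 to 52.1 CPM.

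To compare the genes with each other inside a library, each was also set against Csf1r of the same library, as the log2 ratio of the counts. This ratio is a description of the members against each other and carries no test. Lyve1 counts were 11.5%, 16.3% and 16.3% of Csf1r counts in CK, 35.1%, 38.6% and 39.99% in DCM, and 48.2%, 52.0% and 55.2% in SPM. The groups did not overlap, and the mean log2 ratio was 1.39 higher in DCM than in CK. Cd163 counts were 31.9%, 37.0% and 41.4% of Csf1r counts in CK, 61.2%, 70.4% and 76.8% in DCM, and 70.0%, 71.5% and 71.8% in SPM. DCM lay above CK by 0.92 in log2 ratio, and the SPM libraries lay inside the DCM range.

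Of the 9 genes set against Csf1r, 4 were higher in every DCM library than in every CK library, namely Lyve1, Cd163, Mertk (0.62 in log2 ratio) and Timd4 (0.52). Adgre1 was lower, at 23.0%, 25.3% and 26.6% of Csf1r counts in CK and 17.3%, 16.5% and 20.96% in DCM. Folr2, Mrc1, Cd68 and Lyz2 overlapped, and the mean log2 ratio of Lyz2 differed by -0.01. The 10 genes thus did not keep their proportions to each other between CK and DCM. Csf1r itself was lower in DCM than in CK, at a log2 fold change of -0.49, which raises the ratio of an unchanged gene. The log2 fold changes of Timd4 and Mertk themselves were -0.01 and 0.14. For none of the comparisons was the share of all genes with a shifted ratio to Csf1r computed.

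**Figure D2:**
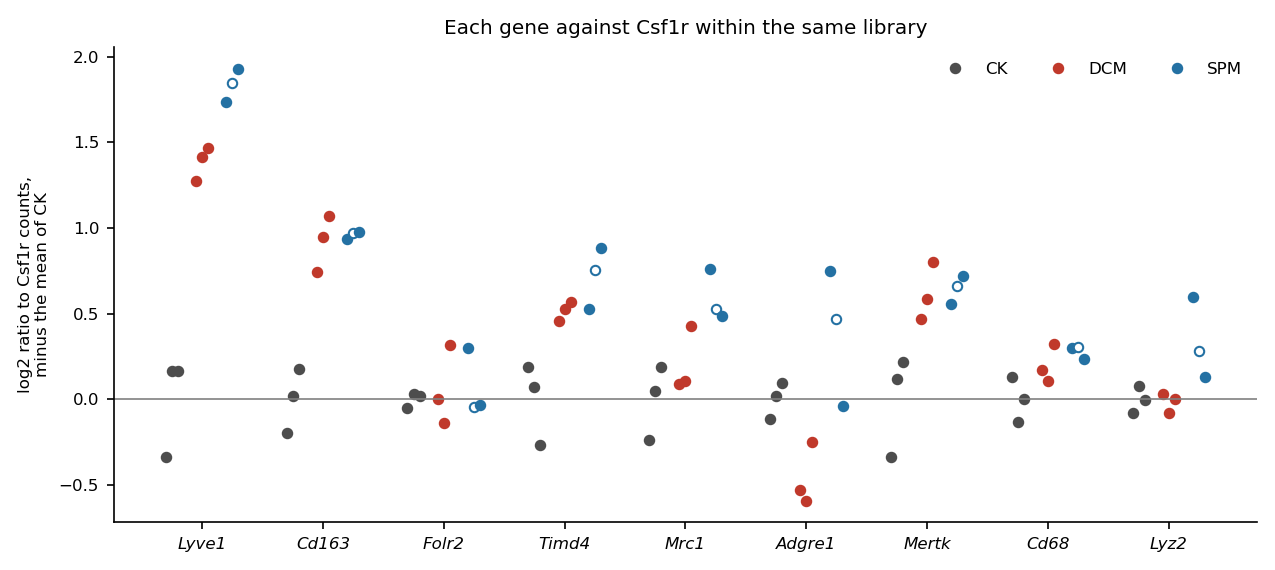
Log2 ratio of the counts of each gene to the Csf1r counts of the same library, minus the mean of the CK libraries (vertical axis), for CK, DCM and SPM, with 1 point per library and SPM replicate 2 open. Lyve1, Cd163, Mertk and Timd4 stand above CK in DCM, Adgre1 stands below, and Lyz2 stays at the level of CK in DCM and is higher in SPM. Csf1r itself was lower in DCM than in CK, which raises the ratios in DCM.

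In SPM compared to DCM, all 10 genes had a positive log2 fold change, from 0.23 for Csf1r to 1.15 for Adgre1, with a median of 0.37 against 0.01 over all genes. Adgre1, Lyve1, Mrc1 and Lyz2 were upregulated. These are 4 of the 10 genes, beside 2.7% of the 14493 genes tested, and 0 were called lower, beside 0.89%, nor was any lower at an unadjusted p below 0.05. SPM and DCM libraries did not overlap for 7 genes that were higher, beside 19.8% of all genes, and for 0 that were lower, beside 19.5%. For Lyz2 the separation was marginal, and on the CPM scale over all 9 libraries SPM replicate 3 (336.6) was just under DCM replicate 1 (336.97). This comparison uses the same DCM libraries as the one before, so the comparisons are not independent of each other. Without SPM replicate 2, Lyve1 was the only one of the 10 called, beside 0.283% of 14828 genes called higher.

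Adgre1 was upregulated 2.22-fold, with a log2 fold change of 1.15 (SE 0.23, edgeR adjusted p = 0.0147). The value depended on single SPM libraries, at 0.83 without replicate 1 and 1.40 without replicate 3. The adjusted p was 0.0520 without SPM replicate 2, 0.0577 without DCM replicate 1 and 0.0816 without DCM replicate 2. All SPM libraries were nevertheless above DCM, the lowest at 23.1 CPM and the highest DCM library at 17.8 CPM.

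Lyve1 was upregulated 1.60-fold, with a log2 fold change of 0.68 (SE 0.07, edgeR adjusted p = 0.00652), and at 0.68 without SPM replicate 2 (adjusted p = 0.0217). It stayed called whichever library was left out, over a range of 0.63 to 0.72. When the GC content of genes entered the fit as an offset, Lyve1 fell under the fold limit at 0.54 (adjusted p = 0.0183), and Adgre1 was then the only one of the 10 called.

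Mrc1 was upregulated with a log2 fold change of 0.64 (SE 0.14, edgeR adjusted p = 0.0189), and Lyz2 with 0.62 (SE 0.18, adjusted p = 0.0399). Neither was called without SPM replicate 2, at 0.68 (adjusted p = 0.0566) and 0.67 (adjusted p = 0.0830). Lyz2 was also not called by DESeq2 or by limma on FPKM values. Timd4 (0.43, edgeR adjusted p = 0.0857), Cd163 (0.28, adjusted p = 0.0533) and Mertk (0.26, adjusted p = 0.0503) were higher in every SPM library than in DCM and did not pass the test. Cd68 (0.32, edgeR adjusted p = 0.0946), Folr2 (0.27, adjusted p = 0.392) and Csf1r (0.23, adjusted p = 0.133) overlapped between SPM and DCM. Against Csf1r in the same library, Lyve1, Mrc1, Adgre1 and Lyz2 were higher in every SPM library than in DCM, and the other 5 genes overlapped.

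Among the 3 SPM libraries, 9 of the 10 genes were highest in replicate 1 and lowest in replicate 3. The levels went from 52.1 to 23.1 CPM for Adgre1 and from 607 to 337 CPM for Lyz2. Replicate 2 lay between the others for 69.1% of genes with enough counts, so this order is 1 contrast, replicate 1 against replicate 3. The share of all genes in this order was not computed. The 9 hepatocyte markers in the table had the same order, summing to 376, 185 and 31.3 CPM, against 27.7 to 32.1 in DCM and 14.7 to 53.3 in CK. Albumin (Alb) was at 248, 113 and 0.29 CPM, against 1.07 to 28.2 in CK and 0.26 to 0.35 in DCM. In DCM most of the hepatocyte sum was Ahsg, another of these markers, at a mean of 28.2 CPM. Ahsg was called higher and Alb lower in DCM compared to CK, at log2 fold changes of 1.32 and -5.09. Adgre1 is also strongly expressed by the macrophages of the liver, whose defining gene Clec4f was at 0.31, 0.23 and 0.26 CPM in SPM. Clec4f was at 0.03 to 0.51 CPM in CK and 0.07 to 0.25 CPM in DCM. As in the other SPM libraries, Adgre1, Lyve1, Mrc1, Timd4, Cd163 and Mertk were above all DCM libraries in SPM replicate 3. Its hepatocyte sum lay in the DCM range, while Cd5l was at 2.47 CPM there and at most 0.60 in DCM. Cd5l and Vsig4 are listed here both for liver macrophages and for resident heart macrophages. Of the 5 tested genes of the liver macrophage and sinusoid list, Cd5l, Dnase1l3, Marco and Vsig4 were called higher and Slc40a1 lower in SPM compared to DCM, and without SPM replicate 2 only Marco was called. The sum of this list was highest in DCM at 55.0 to 61.7 CPM. It was 50.3 to 53.4 CPM in CK and 40.4 to 52.1 in SPM. Most of that sum was Slc40a1, at a mean of 47.0 CPM in CK, 50.9 in DCM and 31.8 in SPM. Means in CK, DCM and SPM were 2.98, 6.34 and 10.3 CPM for Vsig4 and 0.32, 0.27 and 1.76 CPM for Cd5l. They were 0.17, 0.03 and 1.84 CPM for Marco and 1.04, 0.18 and 0.65 CPM for Dnase1l3. Dnase1l3 thus had its highest mean in CK, and it was called lower in DCM compared to CK (-2.54). Clec4g, which marks liver sinusoids, had at most 3 counts in any library. The part of liver RNA in the levels of the macrophage genes was not tested.

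In SPM compared to CK, Lyve1 and Cd163 were upregulated and the genes that had been low in DCM overlapped the controls. Lyve1 was 2.98-fold higher (log2 fold change 1.57, SE 0.10, edgeR adjusted p = 0.00036) and Cd163 1.64-fold higher (0.71, SE 0.09, adjusted p = 0.00156). These 2 of the 10 were called higher beside 5.08% of 14574 genes, and 0 were called lower beside 4.12%, nor was any lower at an unadjusted p below 0.05. Both remained called without SPM replicate 2, at 1.58 (adjusted p = 0.00226) and 0.71 (adjusted p = 0.00974), beside 2.9% of 14897 genes called higher. Groups did not overlap for 4 genes that were higher, beside 22.8% of all genes, namely Lyve1, Cd163, Mertk and Timd4, and for 0 that were lower, beside 23.5%. For Timd4 the separation was marginal, at 4.26 CPM in SPM replicate 3 and 4.15 CPM in CK replicate 1. The median log2 fold change of the 10 was 0.29, against 0.00 over all genes.

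Mertk had a log2 fold change of 0.39 (SE 0.10, edgeR adjusted p = 0.0202), past the p limit and short of the fold limit, and Timd4 of 0.42 (SE 0.23, adjusted p = 0.211). Mrc1 (0.36, edgeR adjusted p = 0.0953), Adgre1 (0.21, adjusted p = 0.535), Lyz2 (0.11, adjusted p = 0.693) and Cd68 (0.02, adjusted p = 0.950) did not pass the test, and Folr2 (-0.15, adjusted p = 0.625) and Csf1r (-0.26, adjusted p = 0.166) had the only negative values of the 10. Against Csf1r in the same library, 7 of the 9 other genes were higher in every SPM library than in CK, and Folr2 and Adgre1 overlapped. The value of -0.26 for Csf1r itself raises these ratios, and the share of all genes was not computed.

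**Figure D3:**
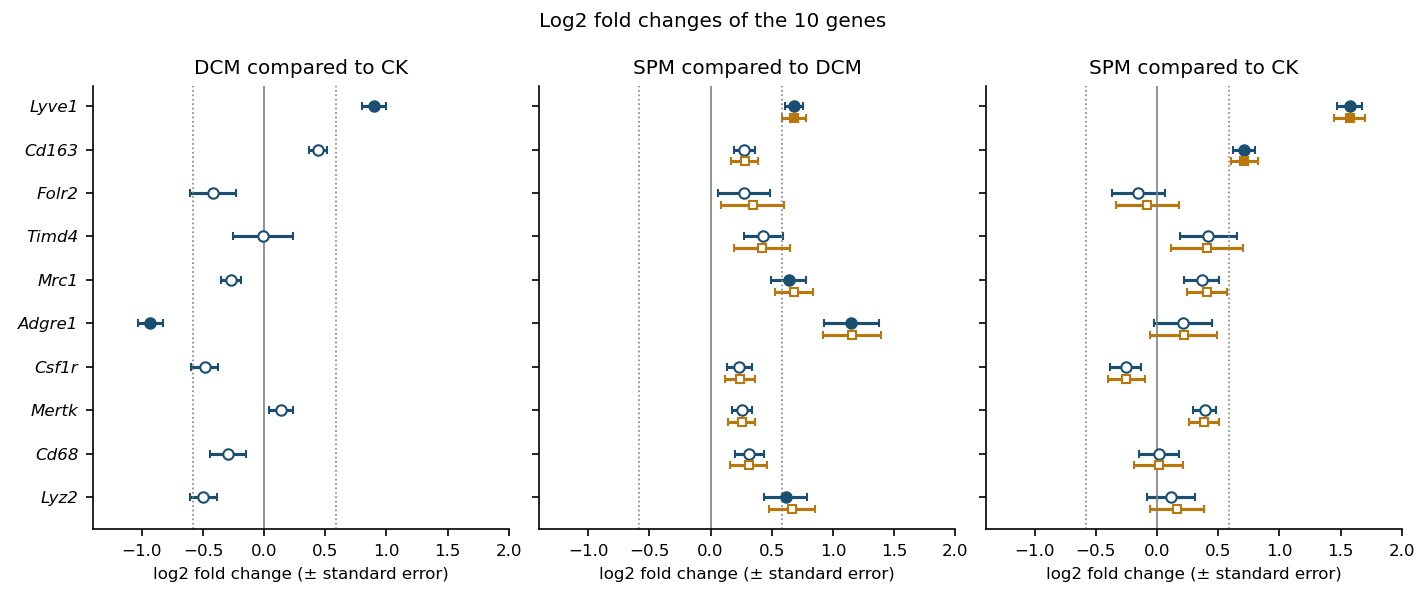
Log2 fold change ± SE (horizontal axis) of each gene in the 3 comparisons, with round marks for all libraries and square marks for the fit without SPM replicate 2. Filled marks were called, dotted lines mark a fold change of 1.5, and in the middle panel Lyve1 is the only gene whose round and square marks are both filled.

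The likeness of the genes over the 9 libraries is described by Pearson correlations of log2 (normalized CPM + 0.5) with no test, since the points share groups, libraries and SPM replicate 2. Lyve1 correlated with Cd163 at 0.971 and with Mertk at 0.904, and Cd163 with Mertk at 0.898. Adgre1 correlated with Lyz2 at 0.944 and with Mrc1 at 0.905, and Lyz2 with Cd68 at 0.866, with Folr2 at 0.865 and with Csf1r at 0.825. Between these sets the values ranged from -0.409 for Lyve1 with Csf1r, through 0.0769 for Lyve1 with Adgre1, to 0.699 for Mertk with Mrc1, and Mrc1 correlated with Cd163 at 0.498 and with Lyve1 at 0.452. Without SPM replicate 2, Lyve1 correlated with Cd163 at 0.966, with Mertk at 0.884 and with Adgre1 at -0.0543. Adgre1 then correlated with Lyz2 at 0.951 and with Mrc1 at 0.896. Values within groups were computed over all 9 libraries only, so the spread from SPM replicate 1 to replicate 3 enters them. Within groups, after the group means were taken away, Cd163 correlated with Adgre1 at 0.925 and with Mrc1 at 0.902. With the same genes, Lyve1 correlated at 0.477 and 0.557 and Mertk at 0.608 and 0.731. With Cd68 and Csf1r, Cd163 correlated at 0.609 and 0.671, Lyve1 at 0.0547 and 0.396, and Mertk at 0.0391 and 0.204.

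Among 12600 other genes with a mean of at least 1 CPM, the 5 whose pattern was most like the mean z score of the 10 genes were Ptprj, a receptor tyrosine phosphatase, at a Pearson correlation of 0.989, Csf2rb, a subunit shared by the receptors for GM-CSF, IL-3 and IL-5, at 0.967, C5ar1, the receptor for complement C5a, at 0.964, Tlr1, a receptor for bacterial lipopeptides, at 0.963, and Serpina3f, a protease inhibitor, at 0.953. Without SPM replicate 2, the correlations of these 5 genes lay between 0.948 and 0.989. The mean z score was 0.253, 0.141 and -0.743 in CK, -0.378, -0.774 and -0.574 in DCM, and 1.43, 0.655 and -0.0145 in SPM. CK replicate 3 was in the range of DCM, and SPM replicate 3 was below the other CK libraries.

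**Figure D4:**
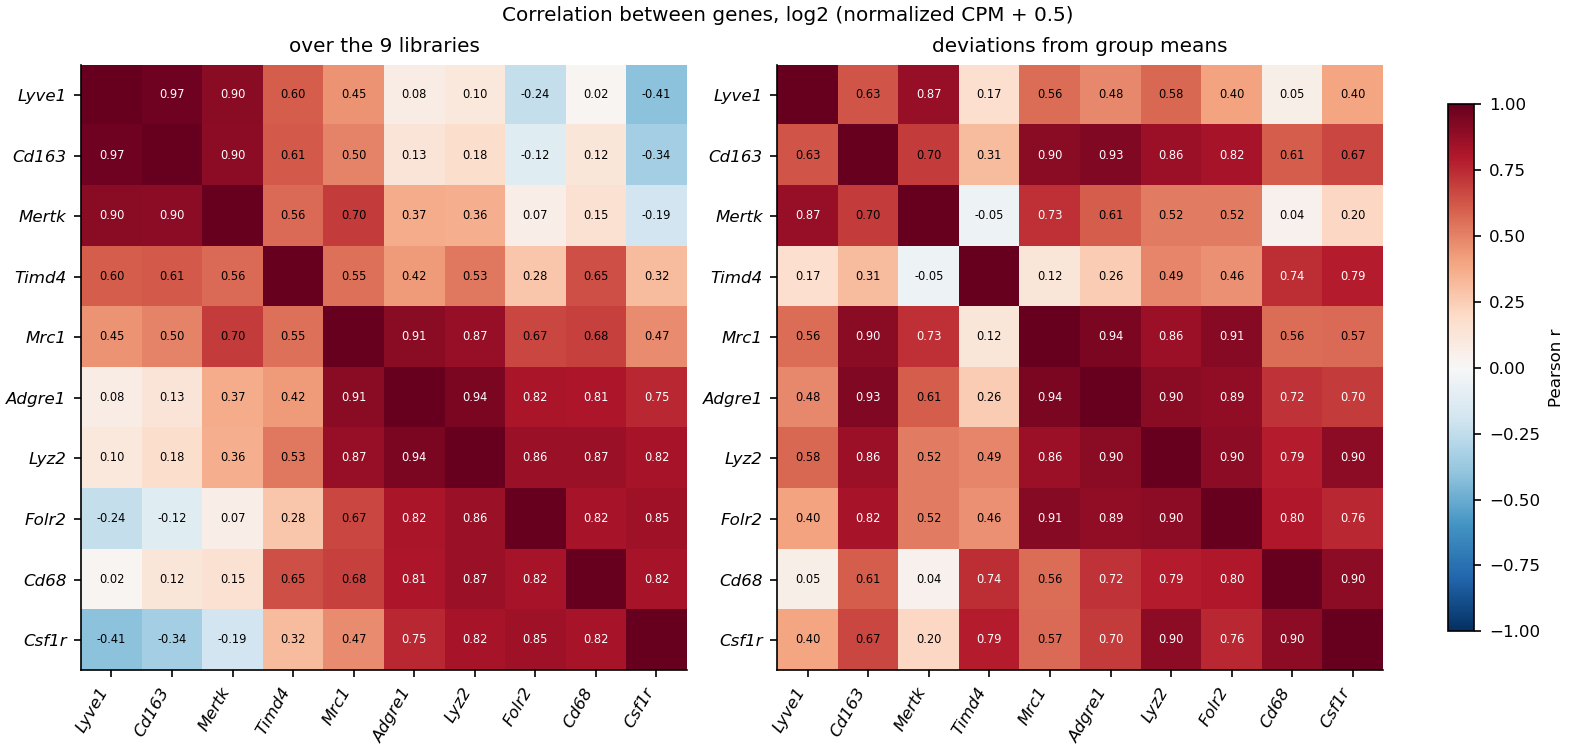
Pearson correlations between the 10 genes over the 9 libraries (left) and between their deviations from the group means (right), on a colour scale from -1 (blue) to 1 (red). On the left Lyve1, Cd163 and Mertk form a block at 0.90 to 0.97 that is lower with Adgre1 and Lyz2, at 0.08 to 0.37, and on the right Cd163 joins Adgre1, Mrc1 and Lyz2 at 0.86 to 0.93.

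Lyve1 was set beside the lymphatic endothelial genes, since both cell types express it. In DCM compared to CK, Reln and Mmrn1 were upregulated with Lyve1, at log2 fold changes of 1.01 (SE 0.13, edgeR adjusted p = 0.000406) and 0.81 (SE 0.15, adjusted p = 0.00574). Reln was at 9.502, 10.97 and 12.7 CPM in CK and 22.8, 24.7 and 19.3 CPM in DCM, with no overlap. Prox1, a transcription factor of lymphatic endothelium, and Flt4, the receptor for VEGF-C, were at 0.03 and 0.15 and did not pass the test. Whether their RNA came from lymphatic endothelium alone was not tested.

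Lyve1 was also called higher in SPM compared to DCM. In that comparison none of the 4 lymphatic genes was called and none had an unadjusted p below 0.05 (edgeR). Their log2 fold changes were -0.21 for Reln, 0.17 for Mmrn1, -0.03 for Flt4 and 0.15 for Prox1. The 4 genes had their lowest sum in CK, at 144 to 158 CPM, with 174 to 189 in DCM and 172 to 201 in SPM. Most of this sum was Prox1, at means of 79.5, 81.0 and 90.0 CPM, and Flt4, at 48.2, 53.4 and 52.2 CPM. Reln (0.80) and Mmrn1 (0.97) were upregulated in SPM compared to CK. How much of the Lyve1 RNA came from lymphatic vessels was not tested in any comparison.

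**Figure D5:**
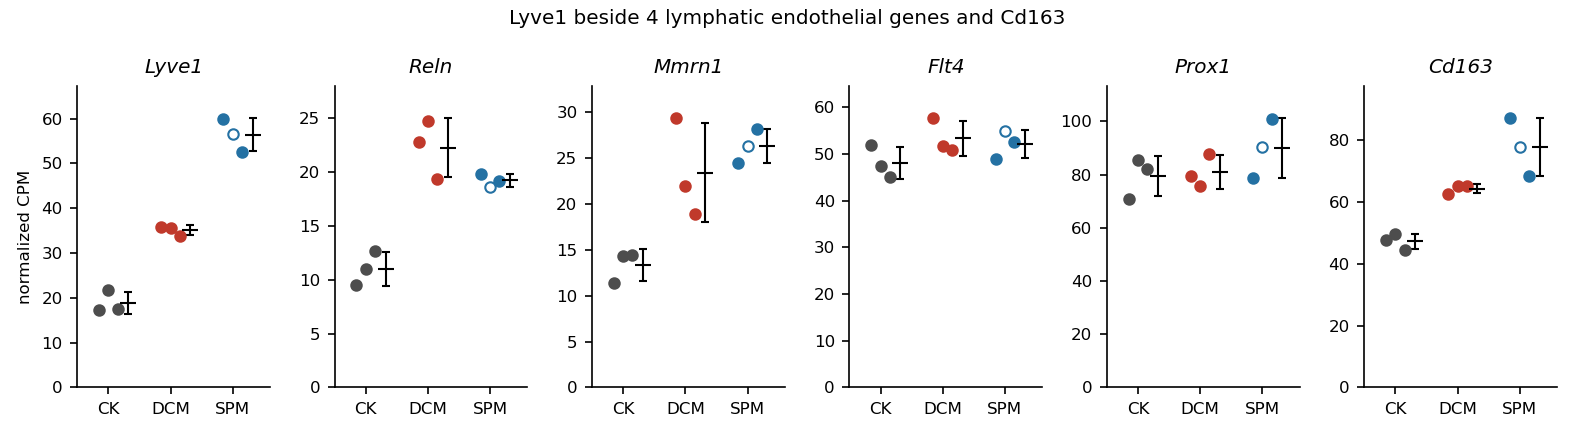
Normalized CPM (vertical axes, from 0) of Lyve1, of 4 lymphatic endothelial genes and of Cd163 in the 3 libraries of CK, DCM and SPM (points, SPM replicate 2 open), with mean ± SD. Reln and Mmrn1 are higher in DCM than in CK, as is Lyve1. Lyve1 is at 33.9 to 35.8 CPM in DCM and 52.6 to 59.98 CPM in SPM, and the 4 lymphatic genes overlap between DCM and SPM.

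Other genes known from resident heart macrophages were read from a list of 24, of which 23 were in the table. In DCM compared to CK, 0 of the 22 tested were called higher (edgeR, 10 with an unadjusted p below 0.05 in either direction) and 3 were called lower, namely the fractalkine receptor Cx3cr1 (-1.86), the chemokine Ccl24 (-0.88) and the lectin Mgl2 (-0.84), with a median of -0.18. Cx3cr1 was at 20.2, 12.98 and 8.76 CPM in CK, 4.17, 3.59 and 3.75 in DCM, and 7.05, 6.85 and 6.51 in SPM. In SPM compared to CK it was still lower, with a log2 fold change of -1.04 (edgeR adjusted p = 0.0187). Vsig4, a complement receptor, was at 1.08 in DCM compared to CK and did not pass the test (edgeR adjusted p = 0.0503).

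Of the same list, 10 of 21 tested genes were called higher and 0 lower in SPM compared to DCM, with a median of 0.60. They were the chemokine Ccl8 (2.38), Cd5l (2.596), Cx3cr1 (0.82), the complement chains C1qa (0.73), C1qb and C1qc, Vsig4 (0.70), the sialic acid receptor Siglec1, the transcription factor Maf and the transglutaminase F13a1 (0.60). Of these, Cd5l and Vsig4 are also on the liver macrophage and sinusoid list, and which cells their RNA came from was not tested. Without SPM replicate 2, 0 of 22 listed genes tested were called, and 14 had an unadjusted p below 0.05 (edgeR). Ccl8 was at 1.35 to 3.67 CPM in DCM and at 21.6, 11.5 and 4.30 CPM in SPM, while Cd5l was at 0.07 to 0.60 CPM in DCM and at 1.35, 1.45 and 2.47 CPM in SPM, the reverse order. Against CK, 4 of 22 were called higher in SPM, namely Ccl8 (2.61), Cd5l (2.46), Vsig4 (1.77) and F13a1 (0.70), and 3 lower, namely Ccl24 (-1.48), Cd209g (-1.31) and Cx3cr1 (-1.04). Without SPM replicate 2 the counts were 4 higher and 0 lower.

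Of the ligands and lineage factors around CSF1R, 13 of 15 were tested in DCM compared to CK, and 0 were called higher and 2 lower (edgeR, 5 with an unadjusted p below 0.05). These were Spi1, which encodes PU.1, at -0.72 (SPM compared to DCM 0.66), and Spic, which had 0.41 to 0.61 CPM in CK and at most 0.05 CPM in DCM. Spi1 was at 19.9, 13.1 and 11.4 CPM in CK, 9.43, 9.07 and 8.35 in DCM, and 17.6, 13.7 and 11.04 in SPM, so that DCM was the lowest group, as for Adgre1. The ligands Csf1 (-0.25, edgeR adjusted p = 0.165) and Il34 (0.35, adjusted p = 0.273) did not pass the test. Spi1 and Csf2rb (1.03) were called higher and Cebpb (-1.01) lower in SPM compared to DCM among 12 tested, and 0 were called without SPM replicate 2, with 4 at an unadjusted p below 0.05 (edgeR). Against CK, 0 of 13 were called higher in SPM and Spic (-2.02) was lower, a call that was lost without SPM replicate 2 (-2.09, edgeR adjusted p = 0.105).

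The partners of Mertk and Timd4 in binding and engulfing dying cells did not pass the fold limit where they passed the p limit. Of 13 tested genes, 0 were called in each of the 3 comparisons (edgeR), with 2, 5 and 1 at an adjusted p below 0.05, and 4, 6 and 5 at an unadjusted p below 0.05, in DCM compared to CK, SPM compared to DCM and SPM compared to CK. The bridging ligand Gas6 was at 0.14, 0.02 and 0.16 in that order and its receptor Axl at 0.00, 0.07 and 0.06. A further list held 11 genes tied to the other members, namely their partners and Lyz1, the close copy of Lyz2. Of these, the hyaluronan synthase Has3 was lower in DCM than in CK (-0.87) and in SPM than in CK (-1.34). Between SPM and DCM, haptoglobin (Hp, 1.49), haemopexin (Hpx, 5.35) and Lyz1 (1.17) were called higher and the folate transporter Slc46a1 lower (-0.77), and 0 of the 10 tested were called without SPM replicate 2, with 4 at an unadjusted p below 0.05 (edgeR). Hp and Hpx are made mainly by liver, and Hpx was at 20.97, 9.04 and 0.00 CPM in the SPM libraries. Like the sum of the hepatocyte markers, it was higher in replicate 1 than in replicate 3.

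The pan-leukocyte, monocyte, neutrophil and dendritic cell sums did not all move in the same direction between the groups. Pan-leukocyte genes are shared by leukocytes in general, macrophages among them. The 10 pan-leukocyte genes summed to 264, 235 and 176 CPM in CK and to 260, 221 and 184 in SPM, and were lower in DCM at 164, 111 and 144. Of 9 tested, 6 were called lower in DCM compared to CK and 5 higher in SPM compared to DCM (0 without SPM replicate 2, where 8 had an unadjusted p below 0.05, edgeR). CK replicate 3 was the lowest CK library for this sum, as for Adgre1, Csf1r and Lyz2.

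The 12 monocyte markers had their lowest sum in DCM, at 21.5 to 37.5 CPM, with 39.7 to 57.9 in CK and 60.2 to 60.9 in SPM. Of 10 tested, 0 were called higher and 2 lower in DCM compared to CK, and 7 of 12 were called higher in SPM compared to DCM (1 without SPM replicate 2). Ccr2, which marks macrophages recruited from monocytes, was highest in SPM at 4.07 to 8.10 CPM, with 2.17 to 3.63 in CK and 1.76 to 3.07 in DCM. The 10 neutrophil markers summed to 5.68 to 25.9, 13.04 to 29.2 and 31.8 to 64.5 CPM, and the 9 dendritic cell markers to 42.0 to 50.5, 34.8 to 41.6 and 29.9 to 35.2 CPM in the same order. The part of these cells in the levels of Lyz2, Csf1r, Adgre1 and Cd68, which monocytes also express, was not tested.

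Other marker sums were 140 to 160, 167 to 180 and 195 to 197 CPM for 6 serous cavity macrophage genes in CK, DCM and SPM, 78.1 to 195, 85.9 to 120 and 103 to 135 CPM for 8 adipocyte genes, and 1542 to 3621, 1330 to 3283 and 759 to 1295 CPM for 4 erythroid genes. The serous cavity list held Gata6 and Cd9 as its most abundant genes, both of which other heart cells express. Of the markers that had a row in the table, none was at 0 in all 9 libraries.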

How the data were processed

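RNA of 9 libraries (CK, DCM and SPM, 3 each, grouped by their deposited labels) was analysed. The authors deposited raw counts per gene and, separately, FPKM values, which match count over gene length over library total to within a relative deviation of 8.6e-13. Reads were filtered with fastp. The submitters' processing notes name Bowtie 0.12.2 and the builds mm8 and mm9 without a role, and for the counting tool and its strand setting these sources name nothing. Symbols came from GENCODE M21 (22820 of 22851 identifiers).

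Each comparison used its own 6 libraries with edgeR 4.0.16 in R 4.3.3 (filterByExpr, TMM, quasi-likelihood test, Benjamini-Hochberg over all genes tested), after the pairwise tests of the study, with an adjusted p limit of 0.05 and a fold change limit of 1.5. CPM values were TMM-normalized over all 9 libraries, and SE is the log2 fold change divided by the square root of F. Total counts of 29901300 to 39718680 left as few as 67 counts for Timd4. Levels, ratios and correlations were computed with Python 3.11.15, pandas 2.3.3 and numpy 2.4.6, and figures with matplotlib 3.10.9. The fits were tested on simulated data.

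All 10 members are named, with the genes called from 4 pathway lists (at most 4 per list and comparison by size, with exceptions named for their role or for completeness of a count), the most abundant or defining genes of 12 cell lists, and the 5 most alike genes. C1qb, C1qc, Vsig4, Siglec1, Maf, F13a1, Csf1, Il34, Gas6, Axl, Ccr2, Clec4f, Clec4g, Marco, Dnase1l3, S100a8, Ltf and the lymphatic genes were named outside that rule. The members and lists were chosen with earlier results of these data known. Alternatives were DESeq2 1.42.0, limma 3.58.1 on log2 (FPKM + 0.1), RLE normalization, other filters and fold limits, 1 fit of all libraries, a replicate block, a GC offset, and each library left out. Some listed genes were not analysed here.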

Additional observations from a re-analysis of the deposited data

How the results depend on the processing

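With no fold change limit, or one of 1.3, 5 of the 10 genes were called in DCM compared to CK, and 2 to 4 with single libraries left out. In SPM compared to DCM, the count was 1 with a GC offset, 1 with the GC offset and replicate block, and 1 to 4 with single libraries left out. With the replicate block alone the counts were 2, 3 and 2 in the 3 comparisons. Residuals of libraries with the same number correlated at -0.0746 to 0.205 and others at -0.284 to 0.218, so the numbers were not taken as pairs. The count of 2 in SPM compared to CK was the same with each library left out.

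Values near 0 changed sign. Timd4 in DCM compared to CK was 0.028 with the replicate block, 0.027 with the GC offset, 0.070 with both, and -0.23 to 0.20 with libraries left out. In SPM compared to CK, Cd68 was -0.067 and Lyz2 -0.012 with limma on FPKM, and with libraries left out Cd68 was -0.11 to 0.20, Lyz2 -0.14 to 0.29 and Adgre1 -0.10 to 0.46. No other log2 fold change of the 10 genes changed sign. Apart from the changes of fold limit, which also added Mertk in SPM compared to CK (3 called), calls of single genes were lost 21 times, all in SPM compared to DCM, and gained 3 times, in DCM compared to CK. The cause was not tested. Depth limits Timd4 and Folr2 most, at 67 to 141 and 95 to 191 counts a library.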
